A study of Mus musculus with 48 samples.

Results

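The genes examined here mark T cells and cytotoxic lymphocytes: the CD3 chains Cd3d, Cd3e and Cd3g, the coreceptors Cd4, Cd8a and Cd8b1, the regulatory T cell factor Foxp3, and the cytotoxic granule genes Gzma, Gzmb and Nkg7. They were chosen by symbol, and each of the 10 matched 1 of the 56748 Ensembl identifiers counted in every library. Bulk RNA sequencing had been done on 3 tissues: liver, brown fat (BAT) and the white fat pad of the epididymis (eWAT). The donors were male mice with a deletion of the angiotensinogen gene Agt in hepatocytes (hepAGT-/-, here KO) and littermates without it (hepAGT+/+, here WT). All mice, controls included, had eaten a Western diet with 21% milk fat and 0.2% cholesterol over 12 weeks. They were kept either at room temperature of 20 to 22 °C (RT) or at thermoneutrality of 30 °C (TN), where a mouse spends little energy on staying warm. The 48 libraries form 12 groups of 4, defined by tissue, genotype and housing, which the labels call biological replicates. Age and the Cre line behind the deletion are not given in the sources used here.

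T cells recognise antigen through a receptor whose signal is carried into the cell by the CD3 chains. Helper and regulatory T cells carry CD4 and bind MHC class II, while cytotoxic T cells carry CD8 and bind MHC class I. Natural killer (NK) cells share the granzymes and Nkg7 with cytotoxic T cells but lack surface CD3. In liver and in fat of overfed mice these cells sit among far more numerous parenchymal cells and macrophages, so their transcripts are rare in whole-tissue RNA.

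The 3 CD3 genes lie together on chromosome 9, with Cd3g and Cd3d read in opposite directions from starts 1355 bp apart. Cd4, Cd8a and Cd8b1 lie on chromosome 6, Nkg7 on 7, Gzma on 13, Gzmb on 14 and Foxp3 on X. The sequences upstream of Nkg7, of Cd3d and of Cd3g are shown because Nkg7 carried the one change called between groups within a tissue, and because the neighbours Cd3d and Cd3g were both called higher in eWAT than in BAT. Each is the 250 bases before the RefSeq start on GRCm38.p6, 5′ to 3′ along the gene's strand: chr7:43436888-43437137 (+) for Nkg7, chr9:44981536-44981785 (+) for Cd3d and chr9:44980432-44980681 (-) for Cd3g. Capitals mark exact matches, on either strand, to TGTGGT (bound by RUNX factors) or AGGAAG (bound by ETS factors).
Nkg7: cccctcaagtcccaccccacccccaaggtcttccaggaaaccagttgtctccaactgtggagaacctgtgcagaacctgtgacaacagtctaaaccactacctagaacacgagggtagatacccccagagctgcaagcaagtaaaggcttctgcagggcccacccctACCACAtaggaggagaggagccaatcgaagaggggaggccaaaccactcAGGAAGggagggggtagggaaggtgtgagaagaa
Cd3d: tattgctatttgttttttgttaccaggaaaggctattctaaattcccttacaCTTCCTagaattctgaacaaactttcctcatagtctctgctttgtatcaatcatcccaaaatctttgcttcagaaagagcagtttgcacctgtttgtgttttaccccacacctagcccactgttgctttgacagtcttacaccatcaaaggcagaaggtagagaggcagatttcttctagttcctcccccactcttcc
Cd3g: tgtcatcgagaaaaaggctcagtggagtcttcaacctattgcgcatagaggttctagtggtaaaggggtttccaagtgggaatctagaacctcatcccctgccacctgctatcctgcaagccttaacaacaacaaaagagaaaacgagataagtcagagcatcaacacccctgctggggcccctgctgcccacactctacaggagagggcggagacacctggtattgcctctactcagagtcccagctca
The Nkg7 stretch holds 1 match to each motif, the Cd3d stretch holds 1 ETS match and the Cd3g stretch none. The motifs do not overlap in these stretches. Sequences of this kind were found for 8 of the 10 genes, of which 3 held the RUNX letters (Nkg7, Gzma, Gzmb) and 3 the ETS letters (Nkg7, Cd3d, Cd3e). Over 32851 promoters of the same length, 14.0% held the first and 29.5% the second. A match describes letters and does not show binding.

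Levels are CPM, the count divided by the library's total in M counts, with TMM scaling, edgeR's correction for library composition, except that sums over marker genes are plain CPM. Libraries held 23.7 M to 43.7 M counts, and the members took 0 to 266 counts each, with 51 of 480 values at 0. A count of 0 allows up to 3 counts, which is 0.0687 to 0.127 CPM. Of all values from 1 to 50 counts, 73.3% were even, against 50.4% of values over 200 and up to 2000 and 72.3% of the members' values above 0. Intervals from the counts alone may therefore be too narrow. The targeted gene Agt was at 125 to 207 CPM in the 8 KO livers and at 276 to 503 CPM in the 8 WT livers. Hepatocyte, brown and white adipocyte markers were each highest in the tissue they define. Transcripts of a neighbouring tissue were present in some libraries: epididymis markers reached 936 CPM in eWAT WT RT replicate 18, skeletal muscle markers reached 7630 CPM in BAT, and hepatocyte markers, at 52100 to 91000 CPM in liver, reached 6650 CPM in eWAT KO RT replicate 16 and 2620 and 1530 CPM in BAT KO TN replicates 2 and 5.

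All 10 genes were detected in each tissue, at group means between 0.014 and 3.35 CPM. Nkg7 had a median over 16 libraries of 1.95 CPM in eWAT (range 0.634 to 3.55), 0.590 in liver (0 to 4.07) and 0.408 in BAT (0 to 2.12). Cd4 had medians of 1.44 CPM in liver (0.276 to 4.41), 1.02 in eWAT (0.278 to 3.07) and 0.502 in BAT (0.203 to 1.86), and it was the one gene with a count in every library of the study. The ranges of the 3 tissues overlapped for both genes. Divided by exon length, Nkg7 ranked first in all 3 tissues, at medians of 2.13 CPM per kb in eWAT, 0.646 in liver and 0.447 in BAT. On this length-adjusted scale Foxp3 was the lowest in liver and eWAT, and Gzmb in BAT.

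**Figure D1:**
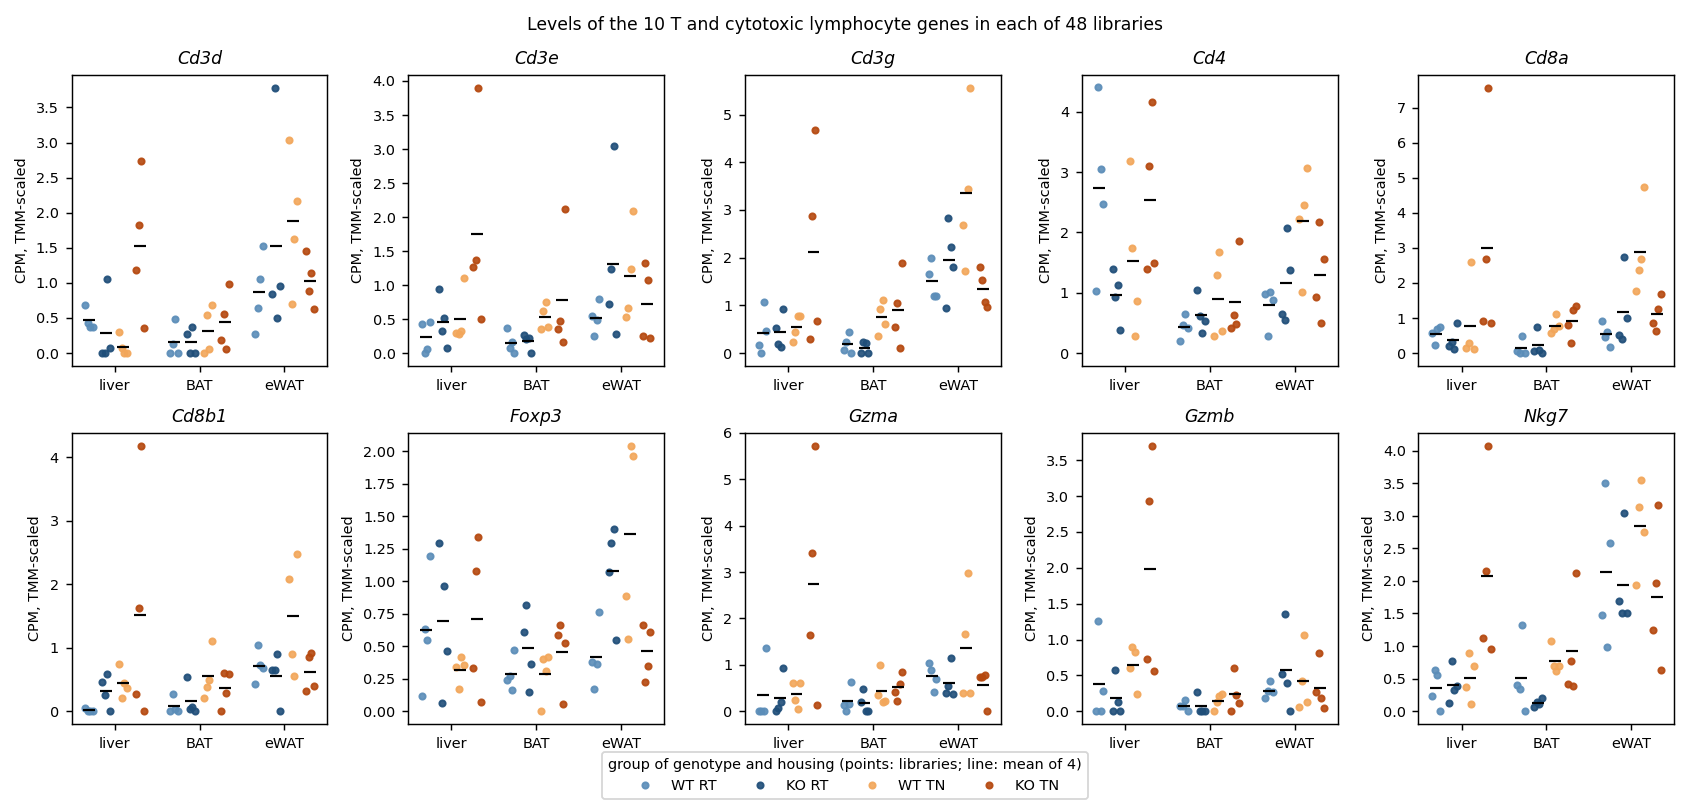
Level of each gene (vertical axes, TMM-scaled CPM, each with its own scale) in the libraries of liver, BAT and eWAT; points are libraries, colours the groups of genotype and housing, and black lines the means of 4. The highest liver point belongs to KO TN replicate 5 for each gene except Cd4, where WT RT replicate 12 stood highest at 4.41 CPM.

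Cd3d, Cd3g, both CD8 genes and Nkg7 were higher in eWAT than in BAT, and Cd4 was highest in liver. In a joint edgeR fit of all 48 libraries, 5 of 10 members were called higher in eWAT than in BAT and 0 lower, where 31.1% of 21910 genes were called higher and 60.3% in either direction. On the scale of this fit, Cd3g was at 1.64 ± 0.944 CPM (SD, n = 16) in eWAT and 0.522 ± 0.567 CPM in BAT, a log2 difference of 2.04 (SE 0.45, adjusted p 0.00016). Nkg7, whose granule membrane protein takes part in the killing of target cells, was at 1.74 ± 0.744 and 0.628 ± 0.596 CPM (log2 difference 1.76, SE 0.38, adjusted p 0.000111). Cd3d (1.95), Cd8b1 (1.35) and Cd8a (1.21) were the others on the log2 scale. Cd8b1, with an edgeR adjusted p of 0.0474, lost the call in 24 of 48 leave-outs (adjusted p up to 0.0726). Cd8a lost it in 1 of 48 (adjusted p up to 0.0686) and in a fit with the replicate number as a block. Without eWAT KO RT replicate 16 the count was 3. It was 7 without BAT KO TN replicate 5.

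Between BAT and liver 4 members were called lower in BAT and 0 higher, against 31.6% and 37% of all genes (68.6% in all). Cd4 differed most surely, at 0.753 ± 0.541 CPM in BAT and 2.24 ± 1.47 CPM in liver (SD, n = 16; log2 difference -1.51, SE 0.33, edgeR adjusted p 7.79e-05). Gzmb, a granule protease that sets off death of the target cell, differed by -2.30 (SE 0.70, adjusted p 0.0036). Cd8a differed by -1.23 and Cd3g by -1.10, and both lost the call when single libraries were left out, with adjusted p up to 0.173 and 0.105. Without liver KO TN replicate 5, and likewise without liver KO RT replicate 19, Cd4 and Gzmb were the 2 members called, as they were without liver KO TN replicates 4 and 5 together.

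Between eWAT and liver 3 members were called, against 73.8% of all genes. Nkg7 was higher in eWAT by 1.23 on the log2 scale (SE 0.37, edgeR adjusted p 0.00331) and Cd4 was lower by -1.01 (SE 0.32, adjusted p 0.00443). Cd3g was higher by 0.94 with an edgeR adjusted p of 0.0476. This call was lost in 23 of 48 leave-outs and in a fit with the replicate number as a block. Without liver KO TN replicate 5, 5 members were called, and without replicates 4 and 5 together also 5 (Cd3d, Cd3g, Cd4, Cd8b1 and Nkg7). The median over the 10 members was 0.04 for eWAT minus liver, 1.26 for eWAT minus BAT and -0.94 for BAT minus liver, beside 0.05, 0.02 and 0.08 over all genes. In whole tissue, fewer cells of a type and less RNA per cell cannot be told apart.

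In liver, 2 libraries of the KO TN group stood apart. The members summed to 42.0 CPM in replicate 5 and 23.0 CPM in replicate 4, while the other 14 liver libraries lay between 3.30 and 9.16 CPM. Replicate 5 had the highest level of 9 of the 10 members among 16 liver libraries, and replicate 4 was among the highest 2 for 8. Cd8a, one chain of the CD8 coreceptor, was at 7.57 CPM in replicate 5, 2.67 in replicate 4, 0.926 in replicate 2 and 0.849 in replicate 22. Gzma, a granule protease, was at 5.72, 3.42, 1.65 and 0.142 CPM in the same order. So the group mean of KO TN livers was set by part of its libraries, and the main results on that group below are given also without replicates 4 and 5, a comparison chosen after seeing the data.

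**Figure D2:**
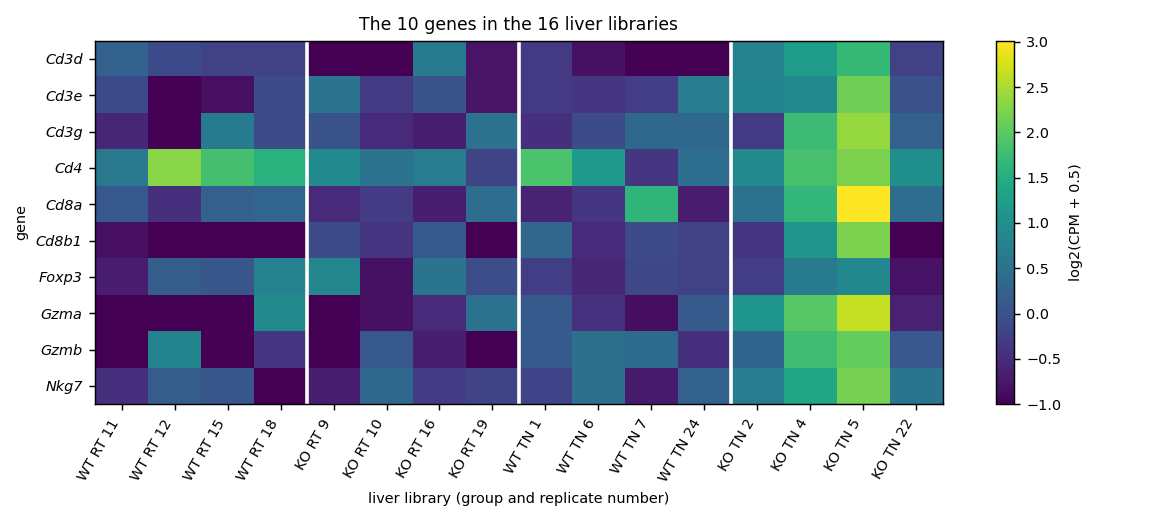
The 10 genes (rows) in the 16 liver libraries (columns, by group and replicate number), coloured by log2(CPM + 0.5). KO TN replicates 4 and 5 are bright in nearly every row, while KO TN replicate 22, with a sum of 5.59 CPM, lies within the range of the other groups; Cd4 is also bright in WT RT replicates 12, 15 and 18.

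Leukocyte transcripts of other kinds were high in the same pair of livers. The sum of the leukocyte markers Ptprc, Coro1a and Laptm5 was 112 CPM in replicate 5 and 87.9 CPM in replicate 4, beside 44.2 and 35.6 CPM in the other KO TN livers and 21.4 to 52.9 CPM in the 12 libraries of the other groups. Macrophage markers (7 genes) summed to 618 and 537 CPM against 293 and 267, Kupffer cell markers (4 genes) to 585 and 455 against 261 and 222, and dendritic cell markers (5 genes) to 32.9 and 16.6 against 12.0 and 13.0. B cell and lymph node markers were at 18.6, 17.5, 17.3 and 13.9 CPM in replicates 4, 5, 2 and 22, above the 5.86 to 12.6 CPM of the other liver groups, but did not set the pair apart from replicate 2. Set against the leukocyte markers, the members amounted, both in plain CPM, to 16.2 to 39.9 CPM per 100 CPM in KO TN livers and to 11.7 to 26.8 in the other liver groups. The part of these cell types in the results was not tested.

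The comparison of genotypes in liver at TN asks whether hepatocyte Agt loss goes with a change in lymphocyte transcripts. All 10 log2 changes were above 0, with a median of 1.86, where 54.5% of all genes were above 0 with a median of 0.05. edgeR called 0 of 10 members beside 3.18% of 17594 genes (at an unadjusted p under 0.05, 3 members beside 17.6% of genes), and DESeq2 also called 0 but gave no adjusted p for Cd3d and Nkg7. Without KO TN replicates 4 and 5 the median was 0.10 and 6 of 10 were above 0. Groups did not overlap for 2 members, where 12.5% of all genes did not. Cd3d was at 0.299, 0.0686, 0 and 0 CPM in WT replicates 1, 6, 7 and 24, and at 1.19, 1.82, 2.73 and 0.354 CPM in KO replicates 2, 4, 5 and 22. Its log2 change was 4.05 (SE 1.39, adjusted p 0.114), and 3.07 (adjusted p 0.522) without replicates 4 and 5. Nkg7 averaged 0.516 ± 0.344 CPM in WT and 2.08 ± 1.43 CPM in KO (SD, n = 4; log2 change 2.00, SE 0.87, adjusted p 0.226), and its change was 1.01 without that pair. A fit to the 8 libraries alone called Cd3d. Of 8 single leave-outs, 1 gave a call, for Cd8a without WT TN replicate 7, which had the highest Cd8a of its group (2.59 CPM). Without KO TN replicates 4 and 5, 0 members were called and 0 had an unadjusted p under 0.05.

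Among related genes, the one called at TN was 1 of 10 tested chemokine and homing genes, beside 3.18% of all genes called. This was the chemokine Cxcl16, whose receptor Cxcr6 is carried by liver lymphocytes. It was at 7.07, 9.78, 8.97 and 9.66 CPM in WT replicates 1, 6, 7 and 24 and at 11.5, 23.1, 25.4 and 15.5 CPM in KO replicates 2, 4, 5 and 22 (log2 change 1.09, SE 0.22, edgeR adjusted p 0.0107). Every KO library exceeded every WT library, where groups did not overlap for 12.5% of all genes in either direction. Without KO TN replicates 4 and 5 the change of Cxcl16 was 0.60 (SE 0.24) with an edgeR adjusted p of 0.277. Of 19 tested genes of T cell receptor signalling 17 had a change above 0 and edgeR called 0 (4 with an unadjusted p under 0.05). All 9 tested cytotoxic and NK genes were above 0 as well, with 0 called (4 with an unadjusted p under 0.05). Of all genes, 17.6% had an unadjusted p under 0.05. Of 4 tested regulatory T cell genes and 3 tested T cell exhaustion genes, 0 were called. Lck, the kinase that starts receptor signalling, had a log2 change of 2.54 with an adjusted p of 0.0653. Without KO TN replicates 4 and 5 it was 2.15 (adjusted p 0.356), with 13 of 19 receptor signalling and 9 of 10 cytotoxic and NK genes above 0.

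At RT the genotypes showed no such direction: 5 members were above 0 and 5 below, with a median of -0.07. edgeR and DESeq2 called 0 members, beside 0.0853% of all genes, and 2 had an unadjusted p under 0.05, beside 10.2%. Groups did not overlap for 0 members, beside 5.82%. The 2 with a low unadjusted p were Cd4, which averaged 2.74 ± 1.40 CPM in the WT group against 0.959 ± 0.426 CPM in KO, and Cd8b1, the other chain of the CD8 coreceptor. Cd8b1 had 2 counts in all WT RT livers together and 40 in KO RT, a ratio of 19.9 (95% exact interval 5.17 to 170, counting error only). In edgeR, whose test includes the spread between livers, its log2 change was 4.00 (SE 1.51, adjusted p 0.339). Gzma and Gzmb had changes of -0.18 and -1.06 with SEs of 1.53 and 1.30, so a change of severalfold in either direction was not detectable here.

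Between housing temperatures, KO livers had higher means at TN for all 10 members, with a median log2 change of 2.31 beside 0.01 over all genes. edgeR called 0 of them and 0.114% of all genes. At an unadjusted p under 0.05 it had 5 of 10 members, beside 10.5% of genes. DESeq2 called Cd8a alone, with a log2 change of 3.04 and an adjusted p of 0.0335. Groups did not overlap for Cd8a and Nkg7, 2 of 10 members beside 7.25% of all genes. Cd8a in KO RT was at 0.194, 0.323, 0.129 and 0.846 CPM in replicates 9, 10, 16 and 19, just below the lowest TN value of 0.849, and its edgeR log2 change was 3.01 (SE 0.95, adjusted p 0.195). Without KO TN replicates 4 and 5 that change was 1.26 and the median over the members 1.09, with 8 of 10 above 0. Nkg7 was at 0.129, 0.774, 0.322 and 0.385 CPM in KO RT replicates 9, 10, 16 and 19 and at 1.12, 2.15, 4.07 and 0.955 CPM in KO TN replicates 2, 4, 5 and 22. Every TN library exceeded every RT library, with a log2 change of 2.36 (SE 0.89, adjusted p 0.311), and of 1.37 (adjusted p 1) without that pair. Foxp3 stood outside the pattern, with means of 0.696 and 0.704 CPM at RT and TN.

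In WT livers 7 members were above 0 and 3 below at TN against RT, with a median of 0.45. Again 0 were called by edgeR or DESeq2, where edgeR called 0.0227% of all genes, and 1 had an unadjusted p under 0.05, beside 7.25%. Cd3d did not overlap between the groups and was lower at TN (log2 change -2.35, SE 1.33, adjusted p 0.773). Cd8b1 did not overlap either and was higher, at 54 counts over the 4 TN livers against 2 at RT. The ratio of 25.2 has a 95% exact interval of 6.66 to 214, which holds counting error only and not the spread between livers. In edgeR, whose test includes that spread, the log2 change was 4.42 (SE 1.52, adjusted p 0.432). Groups thus did not overlap for 2 of 10 members, beside 3.94% of all genes. The interaction of genotype and housing in liver called 0 members and 0% of genes in edgeR and 0 members in DESeq2 (2 members with an unadjusted p under 0.05, beside 7.33%). Of the 10, 9 had a positive term, Cd3d the highest at 4.75 (SE 1.84, adjusted p 0.575). Without KO TN replicates 4 and 5, 6 were positive, 0 were called, and Cd3d had 3.76 (SE 2.30, adjusted p 1).

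In BAT most of the lymphocyte genes had higher means at TN than at RT, at low counts throughout. In TMM-scaled CPM the members summed to 1.09 to 4.04 in the 8 RT libraries and to 3.21 to 12.4 in the 8 TN libraries. These ranges overlap, while those in plain CPM, given below, do not. Gzmb did not reach the count filter in BAT, so 9 members were tested. In KO mice, Nkg7 was at 0.0679, 0.136, 0.110 and 0.199 CPM at RT (2, 4, 3 and 6 counts in replicates 9, 10, 14 and 19). At TN it was at 0.410, 0.772, 0.390 and 2.12 CPM (16, 28, 14 and 73 counts in replicates 2, 3, 4 and 5). Every TN library exceeded every RT library. The log2 change was 2.80 (SE 0.91, edgeR adjusted p 0.0442), the one call among all members within a tissue.

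This call was close to the threshold. It was lost in 6 of 8 leave-outs, with adjusted p from 0.0433 to 0.19; without TN replicate 5 the change was 1.99. Without RT replicate 10 Cd8a was called in its place. A filter of 1 CPM in 4 libraries removed the gene from the test. DESeq2 gave an adjusted p of 0.00871 and also called Cd3g. In KO mice 1 of 9 members was called, beside 15.2% of 18032 genes in either direction and 6.64% higher. Groups did not overlap for 1 of 9, beside 21.3% in either direction and 9.53% higher. At an unadjusted p under 0.05 there were 2, beside 27.9%. With 1 member called, the members are not shown to stand above or below all genes. The median over the members was 1.57 with 8 of 9 above 0, beside 0.04 over all genes. Cd3g had the largest change, 2.93 (SE 1.14, adjusted p 0.0928).

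In WT mice all 9 tested members were above 0 at TN, with a median of 1.07 beside 0.11 over all genes. edgeR and DESeq2 called 0, although edgeR called 32.5% of all genes. An unadjusted p under 0.05 was found for 1 member, beside 42.7% of genes. Cd8a was at 0.0678, 0, 0.480 and 0 CPM at RT in replicates 12, 15, 17 and 18, and at 0.570, 0.674, 1.11 and 0.779 CPM at TN in replicates 1, 6, 7 and 24. It was the one member without overlap, beside 27.2% of all genes (log2 change 2.48, SE 1.17, adjusted p 0.114). Without RT replicate 17 it was called, with a change of 4.79 and an adjusted p of 0.0181. Nkg7 was called in KO and not in WT, but its interaction term was 2.24 (SE 1.21, adjusted p 0.524), so a difference between genotypes was not shown.

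Related genes were also called in BAT. In WT mice 5 of 18 tested genes of T cell receptor signalling rose at TN. Of all genes, 15.9% were called higher there and 32.5% in either direction. Trbc1, a constant segment of the receptor's beta chain, rose by 3.70 on the log2 scale (SE 1.04, adjusted p 0.011), and Skap1, an adaptor, by 3.65 (SE 1.30, adjusted p 0.0385). Themis, which tunes receptor signalling, had 0 counts in each RT library and 8, 18, 32 and 10 counts at TN, which is at least 6.11-fold higher in plain CPM against a floor of 3 counts per library (adjusted p 0.0115). The other 2 called were Tcf7 and Cd247. Trbc1 and Themis kept the call in all 8 leave-outs, whereas Skap1 and Tcf7 lost it in 5 and Cd247 in 7. In KO mice 0 of these 18 were called by edgeR (4 with an unadjusted p under 0.05, beside 27.9% of all genes). In either genotype 17 of the 18 were above 0. Ccl5, a chemokine made by cytotoxic lymphocytes, was the one cytotoxic list gene called there, at 3.46 ± 2.97 CPM against 0.324 ± 0.228 CPM (log2 change 3.41, SE 0.82, edgeR adjusted p 0.00872). That is 1 of 7 tested, beside 6.64% of all genes called higher in KO and 15.2% in either direction.

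Of 9 tested chemokine and homing genes, 3 rose in each genotype. Of all genes, 15.9% were called higher in WT and 6.64% in KO (32.5% and 15.2% in either direction). The T cell attractant Cxcl10 rose by 1.86 in WT (adjusted p 0.01) and by 3.18 in KO (adjusted p 0.000733), and Cxcl16 by 1.16 and 1.46. S1pr1 was the third in WT and Cxcl9 in KO, where it lost the call in 6 of 8 leave-outs. From the list of regulatory T cell genes, 2 of 9 tested, Il1rl1 and Capg, were called higher in both genotypes, beside the same shares of all genes. Il1rl1 is the receptor for IL-33, and Capg, an actin-capping protein, is also made by macrophages. Foxp3 itself had log2 changes of 0.02 (SE 0.92) in WT and -0.09 (SE 0.91) in KO. These comparisons share no libraries, but each was fitted with the spread of all 16.

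In BAT the members summed in plain CPM to 0.979 to 3.03 at RT and to 3.29 to 14.2 at TN, without overlap. General leukocyte transcripts, on the same scale, were higher at TN as well. The 3 leukocyte markers summed to 9.91 to 17.5 CPM in the RT libraries of BAT and to 39.4 to 79.4 CPM in the TN libraries, and macrophage markers to 53.5 to 145 and 206 to 557 CPM, without overlap. Per 100 CPM of leukocyte markers, the members came in plain CPM to 9.88 to 24.5 CPM at RT and 6.34 to 24.2 CPM at TN, which overlap. The NK markers Ncr1, Klrb1c, Klre1 and Eomes stayed under 1 CPM in every BAT library. Skeletal muscle transcripts were at 4660 to 7630 CPM in 3 of the 8 TN libraries (WT replicates 6 and 24, KO replicate 2), and at 3740 and 1230 CPM in KO RT replicates 14 and 19. The part of any of these in the results was not tested.

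Between genotypes in BAT at RT, edgeR and DESeq2 called 0 of 9 members and edgeR 0.0887% of genes, with a median of 0.17 and 6 of 9 above 0. The number of genes called was 16, and it was 0 without KO RT replicate 10 and 1979 without WT RT replicate 12. Groups did not overlap for 0 members, beside 9.26%, and 1 had an unadjusted p under 0.05, beside 19.4%. That member was Nkg7, whose mean was 0.515 ± 0.565 CPM in the WT group against 0.128 ± 0.055 CPM in KO (SD, n = 4). At TN 0 of 9 were called by either tool and 0% of genes by edgeR, with a median of 0.26 and 7 of 9 above 0. Here 0 members had an unadjusted p under 0.05, beside 5.24%, and 0 did not overlap, beside 3.39%. Both tools called 0 members for the interaction and edgeR 0% of genes, with 0 members at an unadjusted p under 0.05, beside 10.2%.

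In eWAT the WT TN group had the highest means of 8 of the 10 genes among the 4 eWAT groups. The members summed to 13.1 to 25.3 CPM in its libraries, to 7.27 to 9.55 in WT RT, 7.82 to 17.5 in KO RT and 6.75 to 11.1 in KO TN. Cd8a was at 1.78, 2.37, 2.68 and 4.74 CPM in WT TN replicates 6, 7, 8 and 23. It was at 0.924, 0.444, 0.601 and 0.176 CPM in WT RT replicates 12, 13, 15 and 18, and at 0.867, 0.630, 1.26 and 1.68 CPM in KO TN replicates 3, 4, 5 and 21. The WT TN libraries lay above those of both groups. The exceptions were Cd3e and Gzmb, whose means were highest in KO RT, at 1.31 ± 1.22 and 0.568 ± 0.573 CPM (SD, n = 4).

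In WT mice, TN against RT gave log2 changes above 0 for all 10 members, with a median of 1.11, while 47.8% of all genes were above 0. edgeR called 0 members and 0% of 18933 genes, DESeq2 called 0 members, and 4 had an unadjusted p under 0.05 (Cd8a, Cd3g, Foxp3 and Cd4), beside 6.99% of all genes. Cd8a was the one member without overlap, beside 4.11% of all genes, with a log2 change of 2.42 (SE 0.62, adjusted p 0.279). Without WT RT replicate 18, the library with epididymis transcripts, it was 2.14 (adjusted p 0.332). In KO mice 8 of the 10 were below 0, with a median of -0.34. Here edgeR and DESeq2 called 0, edgeR called 1.74% of genes, and 0 members had an unadjusted p under 0.05, beside 17.5%. Groups did not overlap for 0 members, beside 9.25%.

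At TN all 10 members were lower in KO than in WT, with a median of -1.07 beside 0.01 over all genes. edgeR called 0 of them and 0.586% of genes. At an unadjusted p under 0.05 there were 3, beside 13.7% of genes. DESeq2 called Cd3g, which averaged 3.35 ± 1.63 CPM in the WT group against 1.35 ± 0.390 CPM in KO (SD, n = 4; edgeR log2 change -1.31, SE 0.41, adjusted p 0.139). Cd8a did not overlap, 1 of 10 beside 9.51% of all genes, with a change of -1.38 (SE 0.59, adjusted p 0.308). Foxp3, the factor that defines regulatory T cells, was at 0.888, 0.557, 2.04 and 1.96 CPM in WT and 0.661, 0.227, 0.348 and 0.609 CPM in KO. Its log2 change was -1.55 (SE 0.60, adjusted p 0.248), and 2 of the 4 WT libraries, replicates 8 and 23, carried the difference in means.

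At RT 7 of the 10 were above 0, with a median of 0.68 and 0 called by edgeR or DESeq2, beside 4.34% of genes. Foxp3 had the 1 unadjusted p under 0.05, beside 17.7% of genes, and 0 members did not overlap, beside 10.9%. The interaction was below 0 for all 10 members, with a median of -1.49 beside 0.03 over all genes. Foxp3 had the largest term, -2.91 (SE 0.85, unadjusted p 0.003, adjusted p 0.553). Cd8a (-2.49) and Cd3g (-1.68) were the others with an unadjusted p under 0.05. edgeR called 0% of genes and 0 members for this term (those 3 with an unadjusted p under 0.05, beside 7.6% of genes), and DESeq2 called 0 members. Of the related lists, 16 of 20 receptor signalling genes and 15 of 17 cytotoxic and NK genes were below 0 in KO at TN. In these lists edgeR called 0, beside 0.586% of all genes (4 and 3 with an unadjusted p under 0.05, beside 13.7%). Capg at RT was the one related gene called in eWAT, lower in KO by -0.72 on the log2 scale (SE 0.17, edgeR adjusted p 0.0239), and it lost the call in 6 of 8 leave-outs.

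Leukocyte markers in eWAT summed to 154 to 262 CPM in WT TN, 118 to 144 in WT RT, 90.3 to 124 in KO RT and 114 to 150 in KO TN. Macrophage markers were at 1440 to 2340 CPM in WT TN and 1110 to 1300 CPM in KO TN. Per 100 CPM of leukocyte markers the members came in plain CPM to 5.85 to 14.2 CPM in WT TN and 5.31 to 9.22 CPM in KO TN, which overlap. B cell and lymph node markers were between 14.5 and 92.1 CPM in these 2 groups and did not follow them. Hepatocyte markers summed to 2450 to 6650 CPM in KO RT, 1260 to 2910 in WT RT, 1070 to 2100 in KO TN and 648 to 1830 in WT TN. The part of these cells in the results was not tested.

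**Figure D3:**
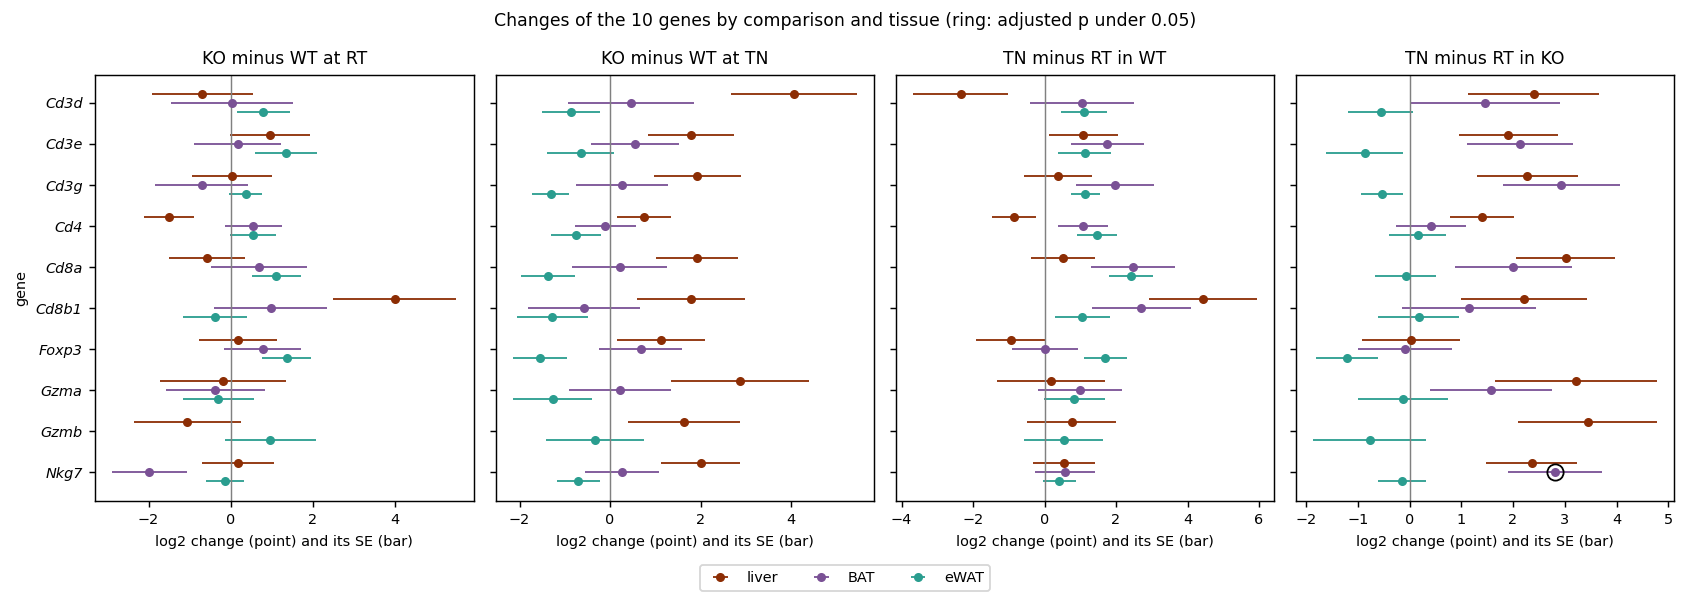
Log2 change of each gene (points) with its SE (bars) from edgeR, in 4 comparisons (panels) and 3 tissues (colours); Gzmb was not tested in BAT. The ring marks the one change with an adjusted p under 0.05, Nkg7 in BAT of KO mice; at TN the KO minus WT changes lie above 0 in liver and below 0 in eWAT for all 10 genes.

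The opposite signs of the genotype changes at TN, above 0 in liver and below 0 in eWAT, were tested as a difference between tissues over the 48 libraries. edgeR called 0 members (3 with an unadjusted p under 0.05, lowest adjusted p 0.264), beside 0.904% of 21910 genes. Without liver KO TN replicates 4 and 5 it called 0 members, with 0 at an unadjusted p under 0.05 and a lowest adjusted p of 0.62. For the genotype change at RT it called 0 (1 with an unadjusted p under 0.05) beside 2.06% of genes. For the housing change it called 0 in WT (1 with an unadjusted p under 0.05) beside 15% of genes, and 0 in KO (2) beside 4.06%. DESeq2 was not run on these differences. The share of all genes at an unadjusted p under 0.05 is not given for them, so those counts of members cannot be judged against it.

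Ratios of counts between pairs of members were followed within a library, as log2 with 0.5 added to each count. They compare transcripts, and whether they follow the balance between cell types was not tested. In liver WT RT replicate 12, Cd4 had 112 counts while Cd3d had 11 and Cd3e and Cd3g had 0 each. For 3 ratios in 3 tissues, 18 two-sided exact permutation tests were run, each over 4900 regroupings within the other factor, and none passed after Benjamini-Hochberg adjustment. The ratio of Cd8a to Cd4 in BAT came nearest: its mean was 0.15 ± 1.03 at TN and -2.63 ± 2.05 at RT (SD, n = 8), a difference of 2.78 (exact permutation p 0.00694, adjusted p 0.125). Without KO RT replicate 10 it was 3.26 with an adjusted exact p of 0.0294. At RT in BAT, Cd8a had 2, 22, 2 and 0 counts in KO replicates 9, 10, 14 and 19. In WT RT replicates 12, 15, 17 and 18 it had 2, 0, 12 and 0 counts. Where Cd8a was at 0 to 2 counts, the 0.5 added largely set the ratio. In liver and eWAT this ratio differed between housing temperatures by 0.98 and 0.54 (adjusted exact p 0.862 for both). Foxp3 to Cd4 changed by -0.96 with housing in BAT (adjusted exact p 0.862). Nkg7 to Cd3e, which compares a gene shared with NK cells with one of T cells, averaged 1.48 at TN and 1.47 at RT in eWAT (adjusted exact p 0.984).

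**Figure D4:**
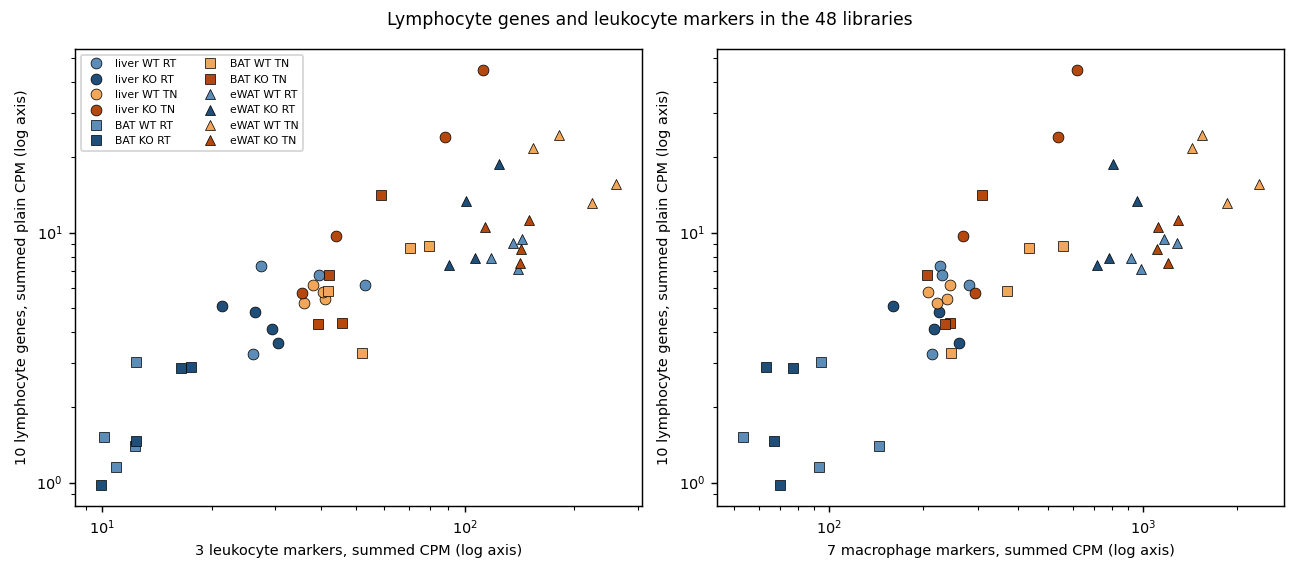
Sum of the 10 genes (vertical axes) against the sum of 3 leukocyte markers (left) or 7 macrophage markers (right), in plain CPM on log axes, 1 point per library; shapes are tissues and colours groups. The BAT libraries at RT lie lowest and eWAT WT TN libraries at the upper right. Liver KO TN replicate 5 stands highest at 44.7 CPM. Liver KO TN replicate 4, at 24.2 CPM, is level with eWAT WT TN replicate 23 at 24.7 CPM.

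The genes most like Cd3e and Nkg7 across the 16 libraries of a tissue were listed as a description, by Pearson's r of log2(CPM + 0.5) over named genes (no predicted Gm or Rik symbols) with a mean of at least 1 CPM; points share library and depth. In liver, Cd3e was followed by Nemp2 (r 0.853), Samhd1, Pfkp, Fes and Pirb, and Nkg7 by Ms4a6b (r 0.878), Rasal3, C3ar1, Arhgef2 and Csf2rb2. In BAT, Ccl5 was nearest to Cd3e (r 0.853), then Nucb1, Renbp, Spn and Slc7a8. Spn, a sialoglycoprotein of leukocytes, was also among the 5 nearest to Nkg7 there (r 0.821), with Exosc10, Pld3, Zfp593 and Recql. In eWAT, Cd3e was followed by Ifit1 (r 0.814), Tomt, Igtp, Irgm2 and Rtp4, of which Ifit1, Igtp, Irgm2 and Rtp4 are known as interferon-induced genes. Nkg7 in eWAT was followed by Psmb9 (r 0.715), Ang, Fam78a, Clcn4 and Bst2.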

How the data were processed

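The authors deposited raw counts per gene, 1 file per library, and per the submitters' processing notes used fastp, STAR 2.6.1d and featureCounts 1.5.0-p3 with GRCm38/mm10. The strand setting is not given in the sources used here, so reads of Foxp3 and its overlapping genes (Ppp1r3f, Ccdc22, Flicr), and of Cd3e and an antisense gene, cannot be told apart. Per the labels, the RNA came from snap-frozen tissue, and libraries were made with NEBNext Ultra kits and read in pairs on an Illumina NovaSeq. Of 56748 identifiers, 52073 (91.8%) had a symbol in the reference gene table.

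Each tissue was fitted over its 16 libraries with edgeR 4.0.16 in R 4.3.3: genes were kept by filterByExpr (minimum count 10), libraries scaled by TMM, each group given its own mean, and contrasts tested by the quasi-likelihood F test with robust dispersions, adjusted by Benjamini-Hochberg over all genes at a threshold of 0.05. The tested genes numbered 17594 (liver), 18032 (BAT) and 18933 (eWAT). Tissues were compared in 1 fit of all 48 libraries and 21910 genes. Groups were called not overlapping when every CPM of one exceeded every CPM of the other. The scripts were tested on simulated data. In the edgeR simulation the changed genes had higher mean counts than most members, so detection at the members' counts was not tested. Lengths for CPM per kb were union exons of GENCODE M21; levels between genes were compared on that scale only, and promoters were those of RefSeq. Ratios were tested in Python with exact permutations.

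The members, the 5 lists of related genes and the marker lists were chosen with earlier results of these data known. All members are named; changes are given in full for those called or not overlapping, up to 3 called genes per related list, and the 5 genes most like Cd3e and Nkg7. Alternatives were RLE scaling, no filter, DESeq2 1.42.0, a filter of 1 CPM in 4 libraries, models of just the 8 libraries compared, a pseudocount of 1, each library left out, and replicate number as a block between tissues. Leaving out liver KO TN replicates 4 and 5 together (within liver and between tissues), and the leave-outs for related genes, were chosen after seeing the data.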

Additional observations from a re-analysis of the deposited data

Results flagged for a closer look

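In 15 of the 120 sets of 4 libraries (10 genes in 12 groups), 1 library lay far from the other 3 by Dixon's criterion. Its rate of about 1 in 20 sets holds for normally distributed values. It does not hold for low counts with many at 0, so the 15 sets are a description without an expected number. In 14 of the 15 sets the outlying library was the highest. In BAT these were KO TN replicate 5 for Cd3e (2.12 CPM) and Cd4 (1.86 CPM), KO RT replicate 10 for Cd8a (0.749 CPM), KO RT replicate 9 for Cd8b1 (0.543 CPM) and Gzmb (0.272 CPM), WT RT replicate 17 for Cd8a (0.48 CPM) and WT RT replicate 15 for Cd8b1 (0.268 CPM). In liver they were WT TN replicate 7 for Cd8a (2.59 CPM), WT TN replicate 24 for Cd3e (1.11 CPM), KO RT replicate 16 for Cd3d (1.06 CPM), WT RT replicate 18 for Gzma (1.37 CPM) and WT RT replicate 11 for Cd8b1 (0.0575 CPM, 2 counts). In eWAT they were KO RT replicate 10 for Cd3d (3.78 CPM) and KO RT replicate 16 for Nkg7 (3.04 CPM). The one outlying low value was Gzma in eWAT KO TN replicate 21, at 0 CPM.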

How the results depend on the processing

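The count of members called within a tissue was 0 or 1 with edgeR in each comparison. For TN minus RT in KO in BAT it was 2 with DESeq2 (Cd3g and Nkg7), 0 with the filter of 1 CPM in 4 libraries, and 0 to 1 when libraries were left out; for TN minus RT in WT in BAT and KO minus WT at TN in liver it was also 0 to 1 when libraries were left out. DESeq2 called 1 member for KO minus WT at TN in eWAT (Cd3g) and 1 for TN minus RT in KO in liver (Cd8a), and the fit to only the 8 libraries compared called 1 for KO minus WT at TN in liver (Cd3d). DESeq2 gave no adjusted p for Cd3d and Nkg7 in that liver comparison. Between tissues, leaving out libraries gave 2 to 5 members for BAT minus liver, 3 to 7 for eWAT minus BAT and 2 to 5 for eWAT minus liver; these leave-outs kept the genes and dispersion trend of the fit to all 48. RLE scaling and no filter on low counts left each of these counts within 1.5 times. Over all genes DESeq2 called more than edgeR: in liver 180 against 15 (KO minus WT at RT), 1111 against 560 (at TN), 75 against 4 (TN minus RT in WT) and 350 against 20 (in KO); in BAT 961 against 16 and 20 against 0 between genotypes; in eWAT 1501 against 821, 680 against 111, 95 against 0 and 1150 against 330 in that order; and 17, 21 and 12 against 0 for the interactions. With no filter edgeR called 47 genes for KO minus WT at RT in BAT, 1 for TN minus RT in WT in eWAT, and in liver 25 for KO minus WT at RT, 10 for TN minus RT in WT and 77 in KO. RLE scaling, the filter of 1 CPM in 4 libraries and the fit to 8 libraries each called 0 genes for KO minus WT at RT in BAT. That filter called 9 for KO minus WT at RT in liver, and the fit to 8 libraries called 13 and 8 there for TN minus RT in KO and in WT, and 0 in eWAT for KO minus WT at TN and for TN minus RT in KO. Without liver KO TN replicates 4 and 5 edgeR called 114 genes for KO minus WT at TN and 0 for TN minus RT in KO. Leaving out single libraries gave 0 (KO RT 10) to 1979 (WT RT 12) genes for KO minus WT at RT in BAT, and there 1920 to 2614 and 4468 to 6685 for TN minus RT in KO and WT. In eWAT it gave 287 (WT RT 18) to 830 for KO minus WT at RT, 1 (KO TN 5) to 238 (WT TN 8) at TN, 0 (KO TN 3) to 642 (KO RT 16) for TN minus RT in KO and 0 to 13 (WT TN 8) in WT. In liver it gave 4 (WT RT 18) to 19, 178 (KO TN 4) to 497, 0 (KO RT 9) to 153 (KO TN 22) and 2 (WT TN 6) to 23 (WT TN 24) in that order. For the interactions it gave 0 to 21 in BAT and 0 to 4 in eWAT.

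Several count ratios near 0 changed sign. Cd8a to Cd4 for KO minus WT in BAT was -0.014 with a pseudocount of 1 and -0.42 to 0.47 when libraries were left out, and in eWAT -0.33 to 0.22. Cd8a to Cd4 for TN minus RT in BAT kept its sign, at 2.37 to 3.26. Foxp3 to Cd4 for KO minus WT in eWAT was -0.040 to 0.46. Nkg7 to Cd3e for TN minus RT in BAT was -0.48 to 0.43; the eWAT range was -0.15 to 0.30 and the liver range -1.01 to 0.56. For KO minus WT in liver it was -0.98 to 0.60.

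Replicate numbers recur across tissues within the same group of genotype and housing, but the labels do not say that a number marks an animal. Deviations from group means correlated between tissues at -0.51 to 0.12 over 35 pairs, with 1 above 0.1. This does not show that libraries with the same number came from different animals. The main fit between tissues took all libraries as independent, and a fit with the number as a block was run beside it. With the replicate block, the counts of members called were 4 for BAT minus liver, 4 for eWAT minus BAT and 3 for eWAT minus liver, where Cd3g had an adjusted p of 0.295 (edgeR) and Cd8b1 was called instead; Cd8a for eWAT minus BAT had an adjusted p of 0.0863. Within a tissue no paired analysis was possible because the groups share no numbers.

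The members' counts were low, at 0 to 266 per gene and library, with low counts mostly even. The part of depth in these results was not tested. Some changes of several SEs did not pass the adjustment, such as Cd8b1 in liver (log2 change 4.42, SE 1.52) for TN minus RT in WT.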

Other observations

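Dntt, the enzyme that adds bases at receptor gene joints in developing lymphocytes, was present in all 16 liver libraries, at a median of 4.93 CPM (range 0.793 to 9.83), and at 0 in 15 of 16 BAT and 12 of 16 eWAT libraries. The recombinase genes Rag1 and Rag2 were at 0 in all liver and BAT libraries, and Ptcra, the pre-T receptor chain, in 15 of 16 livers. The nuclear receptor gene Rora made up most of the NK and innate lymphoid marker sum in every tissue (46.9 to 110 CPM in liver), while Ncr1, Klrb1c, Klre1 and Eomes were at 0 to 1.56 CPM.

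Replicate 5 of the KO TN group was the highest library for 6 members in BAT, with a sum of 12.4 CPM, as it was for 9 in liver. In eWAT the KO TN library with that number had a sum of 10.5 CPM, inside the range of its group, and was highest for 0 members. Whether these libraries came from 1 animal is not stated in the labels.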
